A study of Mus musculus with 8 samples.

Results

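The core snRNP spliceosome genes were examined by RNA-seq in 2 sorted bone marrow populations, LSK and LK, of WT and Ripk3-/- mice. The members were the gene names that begin with Snrp, or that consist of Lsm, Sf3a, Sf3b or Prpf with a number, plus U2af1 and U2af2, and this rule used no expression value. It found 45 members among the 29955 gene names listed in every library. Of these, 44 passed the filter on low values, which asks for a mean signal of 1 or more in the compared libraries. The remaining member, Snrpn, which codes for the imprinted Sm protein SmN, was below 1 in all 8 libraries and entered no test. The rule does not reach every protein of these particles: the list of other splicing genes described further on holds Snrnp70, the U1 70K protein, under its newer name, and Lsm8 is not among the names in the files.

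The strain was labelled CD57BL6/J for all mice. LSK cells are lineage-negative cells with Sca1 and Kit on their surface and contain the stem and multipotent progenitor cells. LK cells are lineage-negative and carry Kit but not Sca1, and contain the committed myeloid and erythroid progenitors. Each genotype was sorted into both populations, which gives 4 groups with 2 libraries each, and no source says whether the 2 came from separate mice, so that the p-values measure only the spread between these libraries. Ripk3-/- mice carry a knockout of Ripk3, which codes for a kinase that mediates necroptosis. The study's text places the collection of these cells a month after fractionated low-dose X-ray irradiation of both genotypes, whereas the labels state that the mice were untreated.

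Splicing removes introns from pre-mRNA. The U1, U2, U4, U5 and U6 small nuclear ribonucleoproteins (snRNPs) assemble on each intron in steps. U1 marks the 5′ splice site, U2AF and U2 mark the 3′ splice site and the branch point, and the U4/U6.U5 tri-snRNP then joins before the catalytic rearrangements. Each of the U1, U2, U4 and U5 RNAs carries a ring of Sm proteins, and U6 carries a related ring of LSm proteins. These proteins are needed in all cells, and mutations in genes such as SF3B1 and U2AF1 recur in human myeloid neoplasms. The 45 members comprised 8 Sm ring genes, 5 U1 genes, 12 genes of U2 and the 3′ splice site, 6 genes of the LSm ring, 10 genes of the tri-snRNP and later steps, and 4 LSm genes outside the U6 ring.

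Read totals ran from 9782166 to 16280811 per library. Signal here means the reads of a gene divided by a library factor in proportion to depth, set separately for LSK and for LK, without division by gene length. A count of 3 reads corresponded to 0.186 to 0.311 signal, a limit that covers counting error only. Ripk3 itself was at 162 and 168 in WT LSK against 3.38 and 1.08 in Ripk3-/- LSK, and at 144 and 150 in WT LK against 16.2 and 10.6 in Ripk3-/- LK, low in every library labelled Ripk3-/-. Ly6a, the gene of Sca1, was at 141 to 237 in LSK and at 0.124 to 4.12 in LK, while Kit was at 223 to 464 in all libraries. Xist was at 108 to 413 in the WT libraries and at no more than 1.27 in the Ripk3-/- libraries, in which Y-linked genes were read, so that genotype and sex cannot be told apart. None of the 45 members lies on chromosome X or Y or on chromosome 14, which holds Ripk3 (GRCm38 annotation).

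Marker genes of mature neutrophils also moved with genotype. The summed signal of 7 such markers was 688 and 750 in WT LSK against 2273 and 2697 in Ripk3-/- LSK, and 772 and 771 in WT LK against 1668 and 1670 in Ripk3-/- LK. By limma, 6 of the 7 were higher in Ripk3-/- LSK and 5 of the 7 in Ripk3-/- LK, and none was at 0. In Ripk3-/- LSK, Flt3 was also higher, as the 1 gene called of 8 markers of stem and multipotent progenitors, 7 of them above 0. Gata1, the erythroid factor, was lower, as the 1 gene called of 7 erythroid and megakaryocyte markers. Of these 7, 5 had a log2 fold change below 0 and 2 above, up to 1.46. Of 8 immediate-early genes, Atf3 was lower in Ripk3-/- LSK, and Atf3 and Junb were lower in Ripk3-/- LK (limma). The log2 fold change was above 0 for 5 of these 8 genes in LSK and for 2 in LK. The part of these shifts in the results for the snRNP genes was not tested. In bulk RNA, fewer cells of a type and less RNA per cell cannot be told apart.

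Promoter sequences are shown for the members with the largest or best-supported genotype differences in LSK cells described in the next paragraphs, so that their upstream regions can be compared. RefSeq promoter windows on GRCm38 were matched by symbol for 35 of the 45 members, and Sf3b4 was not among them. Each sequence is the 250 bases before an annotated start, written 5′ to 3′ on the strand of the gene. Capitals mark matches, on either strand, to the ETS letters CCGGAAG, the SP1 letters GGGCGG, the CCAAT box letters CCAAT, the TATA box letters TATAAA or the YY1 letters AAGATGGCG. The Lsm2 window is the upstream one of 2 listed.
Lsm2, chr17:34981604-34981853, plus strand: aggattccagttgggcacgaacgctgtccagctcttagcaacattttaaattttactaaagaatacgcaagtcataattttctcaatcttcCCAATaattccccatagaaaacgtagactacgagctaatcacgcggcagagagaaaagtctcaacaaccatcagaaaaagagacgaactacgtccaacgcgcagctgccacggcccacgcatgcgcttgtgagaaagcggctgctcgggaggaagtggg
Snrpf, chr10:93589659-93589908, minus strand: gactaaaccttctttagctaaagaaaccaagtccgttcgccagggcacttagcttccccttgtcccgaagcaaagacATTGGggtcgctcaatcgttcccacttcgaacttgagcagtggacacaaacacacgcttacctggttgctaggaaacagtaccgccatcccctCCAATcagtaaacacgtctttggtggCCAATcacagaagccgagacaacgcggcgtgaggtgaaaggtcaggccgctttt
Snrpg, chr6:86371290-86371539, plus strand: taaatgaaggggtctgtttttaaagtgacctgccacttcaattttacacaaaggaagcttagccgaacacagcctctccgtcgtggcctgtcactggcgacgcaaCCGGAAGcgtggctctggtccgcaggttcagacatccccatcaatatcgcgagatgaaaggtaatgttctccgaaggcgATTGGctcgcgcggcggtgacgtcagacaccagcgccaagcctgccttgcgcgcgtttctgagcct
Snrpd2, chr7:19149588-19149837, plus strand: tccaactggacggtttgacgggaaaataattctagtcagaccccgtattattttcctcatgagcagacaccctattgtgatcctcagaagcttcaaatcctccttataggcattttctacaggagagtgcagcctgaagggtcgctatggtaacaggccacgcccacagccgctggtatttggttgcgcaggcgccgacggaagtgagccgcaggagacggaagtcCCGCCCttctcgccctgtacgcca

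Snrpg carried an ETS match and a CCAAT match, Snrpf 3 CCAAT matches, Lsm2 a CCAAT match and Snrpd2 an SP1 match. The other Lsm2 window, chr17:34981880-34982129, held 2 SP1 matches and no CCAAT match. CCAAT was thus present in 3 of the 4 windows shown, a count that becomes 2 of 4 with the other Lsm2 window, and no motif was present in all 4 either way. Over all member windows, the ETS letters were present in 13 of 46 (28.3%), in 12 genes, against 6.91% of all 32851 windows of that length. These 12 genes included Sf3a1, Sf3a2, Sf3a3, Sf3b2 and Sf3b3 of U2, Snrpb2, Snrpc, Lsm5, Prpf3, Prpf4b and Prpf19, besides Snrpg. SP1 letters were found in 47.8% of member windows and 32.7% of all, CCAAT in 43.5% and 33.8%, and TATAAA in 6.52% and 12.4%. The YY1 letters occurred in 1 member window (2.17%, against 0.606% of all), that of Lsm7. The motif shares are descriptions of these windows, and no binding data were measured here.

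Divided by the length of their annotated exons, the members had widely different levels. Snrpb, which codes for the Sm proteins SmB and SmB′, had the highest level, with a median of 421 signal per kb over the 8 libraries and a range of 275 to 481. Lsm4 (240 per kb), Snrpe (192), Snrpg (147) and Snrpd1 (98.3) followed, all of them parts of a ring. Lsm3, with a range of 64.8 to 129 per kb, overlapped Snrpd1, at 79.8 to 125, and Snrpd3, at 65.3 to 106, so that the order among these genes is not set beyond their spread. The same held for Lsm4 (147 to 309), Snrpe (160 to 229) and Snrpg (84.2 to 172), whose ranges overlapped. At the lower end were Lsm2 (0.991 per kb), Lsm11 of the U7 snRNP (2.71), Prpf40b (4.22) and Prpf39 (4.98). Prpf40b and Prpf39 code for U1-associated proteins. Lsm2 therefore stood far below its partners in the LSm ring, which lay between 37.7 per kb for Lsm5 and 240 per kb for Lsm4. By group, the mean of Lsm2 was 0.627 to 1.05 per kb outside Ripk3-/- LSK and 5.40 in Ripk3-/- LSK. There its mean was above those of Lsm11 (3.36, SD 0.70), U2af2 (4.78, SD 1.11) and Prpf40b (5.24, SD 1.67). With an SD of 2.37 for Lsm2, its order against U2af2 and Prpf40b is not set beyond the spread. The order depended on the length used. Per kb of the longest transcript Snrpb was again first, but Lsm3 moved from 7th to 3rd (317 per kb), Lsm4 from 2nd to 4th and Snrpg from 4th to 6th. Lsm2 rose to 3.58 per kb by that length, above Lsm11 (2.71) and still below its ring partners, which ranged from 52.9 per kb for Lsm6 to 317 for Lsm3. Snrpc, the U1 C protein, ranked 40th by all annotated exons and 25th by its longest transcript. The signal of LSK and of LK was scaled separately, which touches these ranges.

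**Figure D1:**
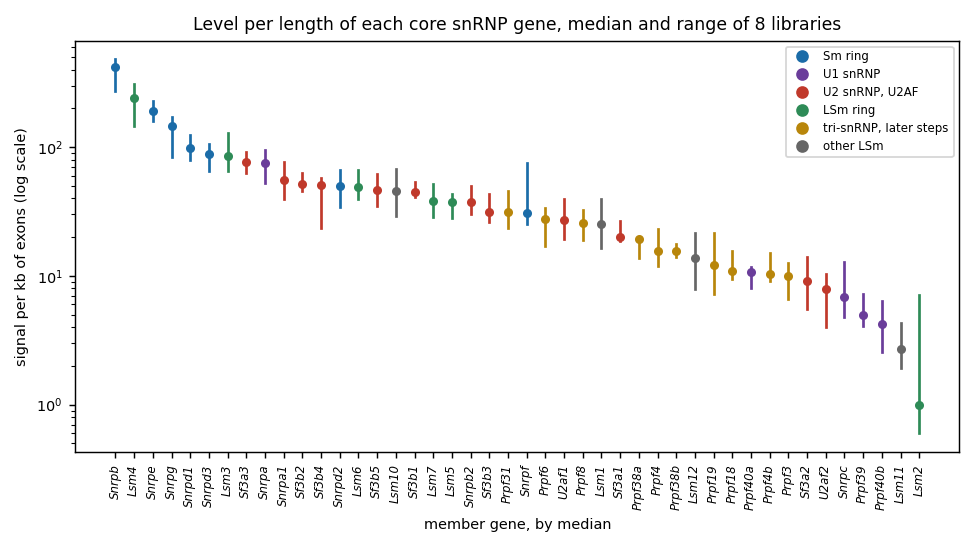
Level per length of the 44 members that passed the filter. The y axis is signal per kb of annotated exons on a log scale, points are medians and lines the lowest to highest of 8 libraries (LSK and LK scaled separately), and colours mark the role. Snrpb is highest at a median of 421 and Lsm2 lowest at 0.991, with a line that reaches 7.07 through the Ripk3-/- LSK libraries.

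The first comparison asked which members differed between Ripk3-/- and WT LSK cells. Lsm2 was higher and Sf3b4 and Snrpg were lower in Ripk3-/- LSK, and the remaining 41 tested members did not pass the threshold (limma on log2(signal + 1), Benjamini-Hochberg adjusted p under 0.05 over all 16817 genes tested). A share of 3 in 44 compares with 2.16% of all genes tested, 0.892% higher and 1.27% lower. At an unadjusted p under 0.05 there were 9 members, against 17.9% of all genes. On the recovered reads, edgeR called Sf3b4 alone (1.19% of all genes) and DESeq2 called 5 members (3.74% of all genes). The median log2 fold change was -0.09 over the 44 members and -0.01 over all genes. The members as a whole were thus close to the other genes, and the differences lay in a few of them.

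Sf3b4, a subunit of the SF3b part of U2 that contacts the pre-mRNA near the branch point, was at 107 and 119 signal in WT LSK and at 62.9 and 50.7 in Ripk3-/- LSK. All WT values lay above both Ripk3-/- values. The log2 fold change was -0.99 (SE 0.22, limma adjusted p = 0.0192). In LK cells the same gene was at 112 and 123 in WT and at 107 and 124 in Ripk3-/-, and there the groups overlapped. Sf3b4 was called under 12 of 17 alternative settings, edgeR and DESeq2 among them, and its adjusted p was 0.112 without WT LSK replicate 2 and 0.147 without Ripk3-/- LSK replicate 2. It has 1 near-identical pseudogene copy and an antisense gene over it, and whether reads were counted by strand is not given in the sources used here.

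Lsm2, a subunit of the ring on the 3′ end of U6, was at 1.99 and 1.97 signal in WT LSK and at 11.7 and 22.3 in Ripk3-/- LSK. These values rest on 20 and 19 reads in WT LSK and on 146 and 228 reads in Ripk3-/- LSK. Both Ripk3-/- LSK libraries stood above all 6 others, since LK cells had 4.08 and 2.52 in WT and 1.90 and 3.73 in Ripk3-/-. The log2 fold change in LSK was 2.53 (SE 0.60, limma adjusted p = 0.0298). It was called under 7 of 17 settings, and leaving out any of the 4 LSK libraries gave an adjusted p of 0.0736 to 0.195. No near-identical copy of Lsm2 was found among annotated pseudogenes.

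Among the Sm ring genes, Snrpg (SmG) was the one called. Its signal was 204 and 270 in WT LSK against 132 and 152 in Ripk3-/- LSK, with no overlap, and 227 to 249 in all LK libraries. The log2 fold change in LSK was -0.72 (SE 0.19, limma adjusted p = 0.0481). This call stood at the edge of the threshold, was kept under 3 of 17 settings, and had an adjusted p of 0.0521 without WT LSK replicate 1 and of 0.228 without WT LSK replicate 2. Snrpg has 3 near-identical pseudogene copies, so reads could be shared with them.

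A pair of further Sm genes lay just outside the threshold and moved in opposite directions. Snrpd2 (SmD2) was at 143 and 175 in WT LSK and at 90.1 and 95.3 in Ripk3-/- LSK, a log2 fold change of -0.77 (SE 0.20, limma adjusted p = 0.0516). Snrpf (SmF) was at 27.6 and 28.6 in WT LSK and at 64.9 and 61.6 in Ripk3-/- LSK, a log2 fold change of 1.14 (SE 0.31, limma adjusted p = 0.0552). For both genes the WT and Ripk3-/- LSK libraries did not overlap, and DESeq2 called both (adjusted p = 0.0048 for Snrpd2 and 0.008 for Snrpf), whereas edgeR called neither (adjusted p = 0.108 and 0.0781). Snrpf has 3 near-identical pseudogene copies and overlaps the antisense genes Ccdc38 and 4933408J17Rik, and Snrpd2 has 2 such copies. Among other members described here, Snrpa has 6 copies, Lsm6 4 and Snrpb2 2, and U2af1 and U2af2 have 3 each. Snrpa, Snrpd3, Prpf39, Prpf4b, Prpf31, Sf3a2, Sf3b2 and Sf3b3 each have an antisense gene over them. Genes on the same strand overlap Snrpa1 (Gm45213), Lsm3 (AC161456.1) and Sf3b3 (Gm22193 and Snord111), so reads could be shared with these too. The other Sm genes, Snrpb, Snrpd1, Snrpd3 and Snrpe, had log2 fold changes of -0.23 to 0.10, none called.

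**Figure D2:**
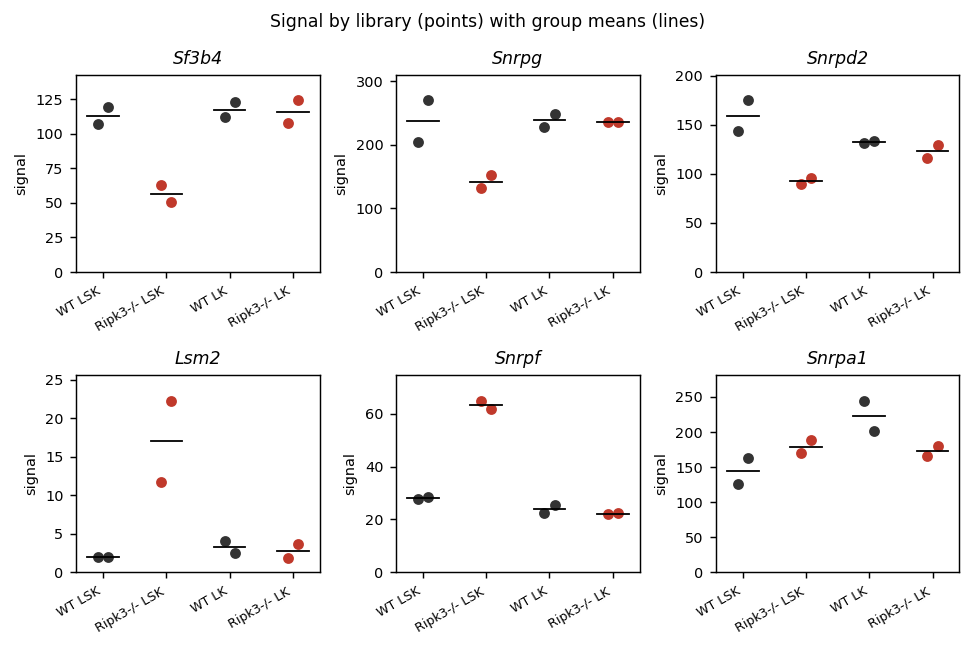
Signal of 6 members in each library. Points are the 2 libraries of a group (black WT, red Ripk3-/-), lines are group means, and each y axis starts at 0. In LSK, Sf3b4, Snrpg and Snrpd2 are lower and Lsm2, Snrpf and Snrpa1 higher in both Ripk3-/- libraries than in both WT libraries, and Sf3b4, Snrpg and Lsm2 pass the threshold.

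Of the 5 U1 genes, none was called in LSK, and 3 had an unadjusted p under 0.05. Snrpc was at 52.7 and 83.1 in WT LSK and at 31.0 and 44.0 in Ripk3-/- LSK (log2 fold change -0.82, SE 0.29, limma adjusted p = 0.145). It has 8 near-identical pseudogene copies, the most of any member. Snrpa, the U1 A protein, was at 236 and 241 against 182 and 155 (log2 fold change -0.50, SE 0.20, limma adjusted p = 0.195). Prpf39 differed in the other direction, with 49.0 and 49.4 in WT LSK and 64.1 and 86.7 in Ripk3-/- LSK (log2 fold change 0.59, SE 0.27, limma adjusted p = 0.255). The U1 genes therefore had no common direction.

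In the group of U2 and the 3′ splice site, Sf3b4 was the only one of 12 genes called in LSK by limma, and the group's median was -0.04. U2af2, which binds the polypyrimidine tract, was at 30.8 and 42.5 in WT LSK and at 22.9 and 16.4 in Ripk3-/- LSK (log2 fold change -0.86, SE 0.34, limma adjusted p = 0.183). Its partner U2af1, which reads the AG at the end of the intron, was at 65.8 and 59.7 against 54.1 and 50.3 (log2 fold change -0.26, SE 0.24, limma adjusted p = 0.605). Sf3b1, the subunit that holds the branch helix, was at 492 and 497 in WT and at 464 and 529 in Ripk3-/-, where the groups overlapped. Sf3a1, Sf3a2 and Sf3a3 of the SF3a part, with Sf3b2 and Sf3b3, had log2 fold changes of -0.09 to 0.20.

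The genes of the tri-snRNP and later steps had log2 fold changes of -0.29 to 0.51 between the genotypes in LSK cells. None of 10 was called by limma, none had an unadjusted p under 0.05, and edgeR and DESeq2 called none outside the genes named above. The largest differences were those of Prpf18, a factor of the second catalytic step, at 50.4 and 55.0 in WT against 69.0 and 83.0 in Ripk3-/- (log2 fold change 0.51, SE 0.25, limma adjusted p = 0.284), and of the kinase gene Prpf4b, at 82.6 and 76.5 against 126 and 95.9 (log2 fold change 0.47, SE 0.23, limma adjusted p = 0.282). Prpf8, the large U5 protein at the catalytic centre, was at 167 and 243 in WT and at 195 and 164 in Ripk3-/-, and these groups overlapped. In the LSm ring, Lsm3 to Lsm7 had log2 fold changes of -0.46 to 0.26. The 4 LSm genes outside it had -0.29 to 0.31, none called.

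Counted by library, both Ripk3-/- LSK values lay above both WT values for 10 members and below for 13. Together this is 23 of 44, and the same held for 44.6% of all genes tested (21.4% above and 23.2% below). Groups of 2 that do not overlap were therefore common in these libraries, and this count does not set the members apart.

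**Figure D3:**
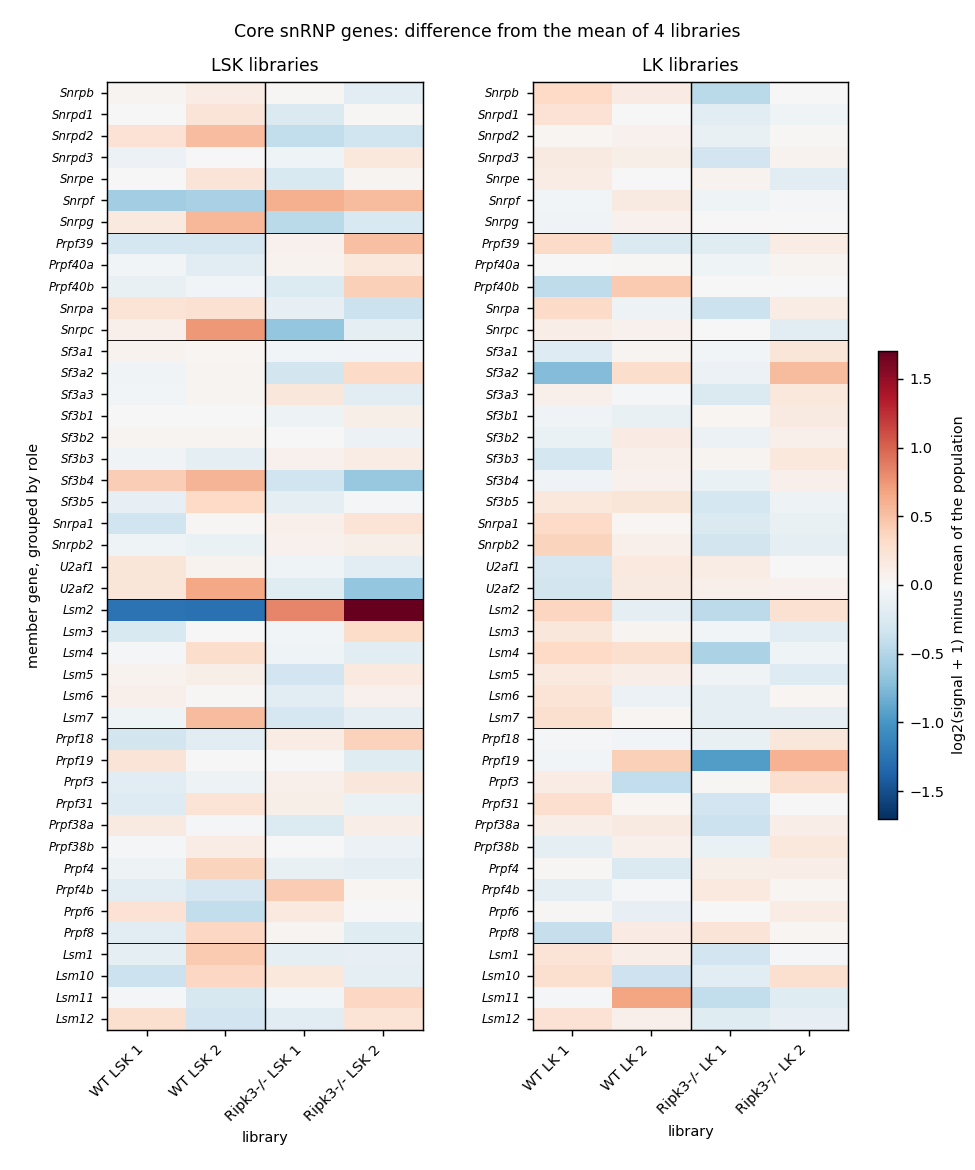
Values of the 44 members in each library, by role. Colour gives log2(signal + 1) minus the gene's mean over the 4 libraries of the population, red above and blue below, and black lines part the genotypes and the roles (from top: Sm ring, U1, U2 and 3′ splice site, LSm ring, tri-snRNP and later steps, other LSm). Lsm2 and Snrpf in LSK stand out as higher in both Ripk3-/- libraries, and Ripk3-/- LK replicate 1 is below the mean for many members (median -0.12).

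The second comparison was between Ripk3-/- and WT LK cells. No member was called by limma among 13949 genes tested, of which 0.473% were called (0.1% higher and 0.373% lower). At an unadjusted p under 0.05 there were 3 members against 6.56% of all genes, and edgeR and DESeq2 called 0 members each (0.319% and 1.16% of all genes). The lowest adjusted p was that of Lsm4, at 280 and 269 signal in WT LK and at 153 and 212 in Ripk3-/- LK (log2 fold change -0.61, SE 0.19, limma adjusted p = 0.296). Snrpb was at 950 and 824 against 544 and 744 (log2 fold change -0.47, SE 0.16, limma adjusted p = 0.403), and Snrpb2, a U2 protein, at 142 and 115 against 86.8 and 97.2 (log2 fold change -0.47, SE 0.21, limma adjusted p = 0.695).

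By role, the log2 fold changes in LK were below 0 for all 7 Sm ring genes tested, all 6 LSm ring genes and all 5 U1 genes, and above 0 for 7 of the 10 genes of the tri-snRNP and later steps. None of these genes was called. Below 0 were 30 of the 44 members, against 6830 of all 13949 genes tested. The median over all 44 members was -0.11, against 0.01 for all genes, and it was -0.01 without Ripk3-/- LK replicate 1. In that library the members had a median of -0.12 from the mean of the LK libraries, against 0.03 in Ripk3-/- LK replicate 2, 0.10 in WT replicate 1 and 0.07 in WT replicate 2. Both Ripk3-/- LK libraries thus lay below both WT libraries, replicate 1 by more. By role, the LSm ring genes had medians of -0.16 and -0.11 in Ripk3-/- LK replicates 1 and 2 against 0.25 and 0.036 in WT, the Sm ring genes -0.13 and -0.011 against 0.13 and 0.073, and the LSm genes outside the U6 ring -0.26 and -0.075 against 0.24 and 0.097. In these 3 roles both Ripk3-/- libraries were below 0 and both WT libraries above. In the remaining roles the median of Ripk3-/- LK replicate 2 was above 0. It was 0.042 for U1, 0.088 for U2 and the 3′ splice site and 0.12 for the tri-snRNP and later steps. Of the larger positive values, Sf3a2 (0.45, SE 0.40) was at 14.8 and 31.5 in WT and at 23.8 and 37.6 in Ripk3-/-, and Prpf3 (0.29, SE 0.27) at 54.3 and 37.2 against 50.6 and 60.5, and in both the groups overlapped. The groups also overlapped for Prpf8 (0.25, SE 0.22), at 142 and 208 in WT and at 218 and 192 in Ripk3-/-, and for Sf3b3 (0.22, SE 0.17), at 341 and 447 against 433 and 477. They did not overlap for Prpf4 (0.22), whose values are given further on. Lsm11 (-0.64, SE 0.41) had the most negative value, with 16.4 and 27.6 in WT and 12.4 and 14.5 in Ripk3-/-. Sf3b5, the small SF3b subunit, was at 188 and 191 in WT and at 134 and 157 in Ripk3-/- (-0.38, SE 0.20). Both Ripk3-/- LK values were above both WT values for 3 members and below for 16, against 20.1% and 19.9% of all genes.

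**Figure D4:**
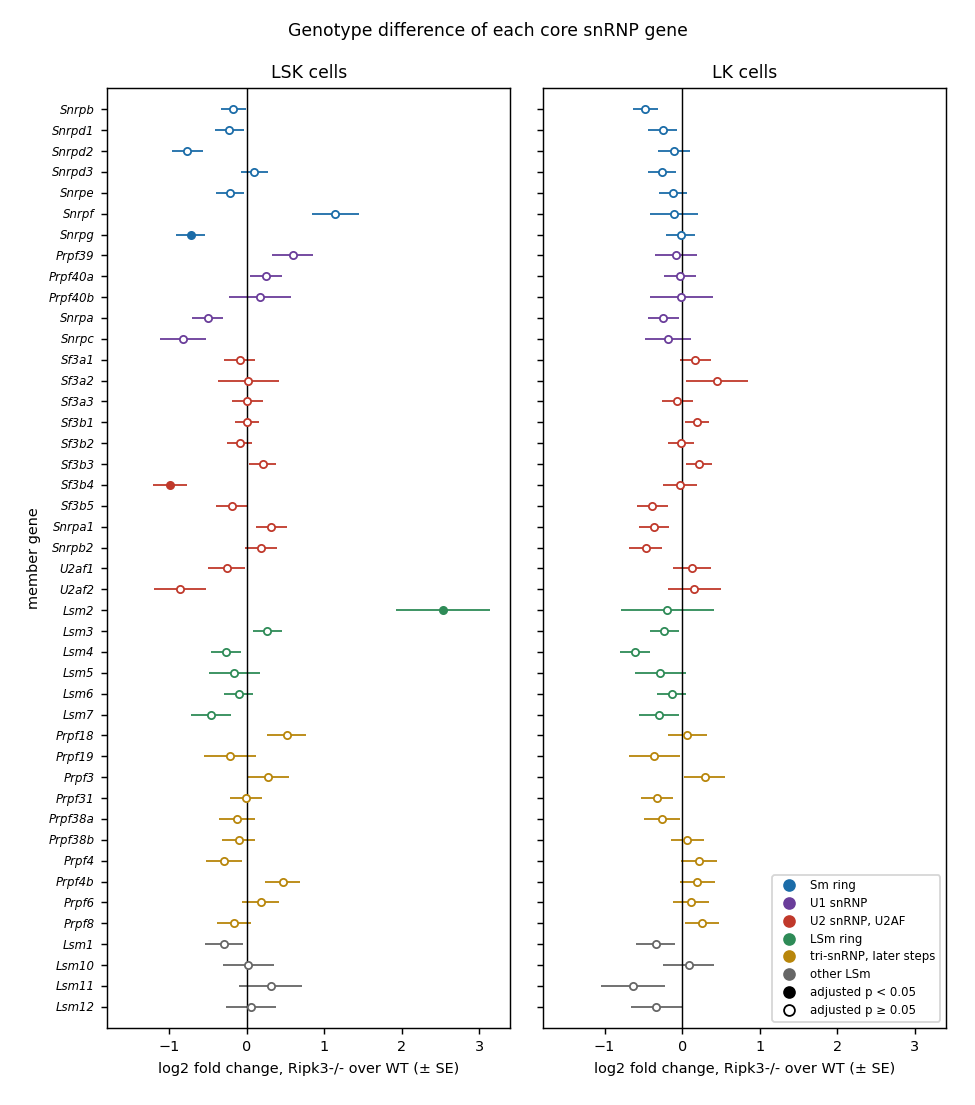
Log2 fold change of each member between Ripk3-/- and WT in LSK (left) and LK (right). Points are limma estimates, lines are ± SE, colours mark the role and filled points have an adjusted p under 0.05. In LSK, Lsm2 (2.53), Sf3b4 (-0.99) and Snrpg (-0.72) are filled, and in LK no member is.

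The third comparison tested whether the genotype difference itself differed between LSK and LK. No member passed it by limma, nor by edgeR or DESeq2, among 15901 genes tested by limma, of which 0.358% were called (0.182% higher and 0.176% lower; edgeR 0.254% and DESeq2 1.03%). There were 8 members with an unadjusted p under 0.05, against 10.1% of all genes. Lsm2 had a difference of 2.72 (SE 0.85, limma adjusted p = 0.258), Sf3b4 -0.97 (SE 0.31, 0.28), Snrpf 1.25 (SE 0.44, 0.315) and Snrpg -0.71 (SE 0.27, 0.372). A genotype difference restricted to LSK was therefore not shown for any of them.

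Related genes outside the rule were described from lists. Of 77 other splicing genes tested, 1 was called in LSK and 0 in LK by limma (10 and 1 with an unadjusted p under 0.05). The gene called in LSK was Nhp2l1, which codes for the U4-binding protein of the tri-snRNP. It was at 223 and 246 in WT LSK against 92.1 and 87.8 in Ripk3-/- LSK, and at 174 to 187 in all LK libraries. Its log2 fold change in LSK was -1.37 (SE 0.19, limma adjusted p = 0.00015), and its difference between LSK and LK was -1.28 (SE 0.26, limma adjusted p = 0.0282). Snrnp70, of the U1 snRNP, had log2 fold changes of 0.25 in LSK (SE 0.22) and 0.19 in LK (SE 0.22). The 20 tested genes of snRNP assembly, such as those of the SMN and PRMT5 complexes, gave 0 calls in LSK and 0 in LK by limma, with 7 and 1 at an unadjusted p under 0.05. Over all genes tested, 17.9% in LSK and 6.56% in LK had such a p.

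The fourth comparison set LSK against LK. For it, reads were placed on one scale for all 8 libraries (CPM, scaled with TMM). The result depended on this scale. With the TMM scaling, 21 of 44 members were lower in LSK and none was higher (limma), against 34.0% of 15757 genes tested (20.2% lower and 13.7% higher), and the members had a median log2 fold change of -0.44 against 0.07 for all genes. With CPM without TMM factors, which moved the median of all genes to 0.39, 7 members were lower and 3 higher, against 9.56% of all genes lower and 24.3% higher, and the median of the members was -0.07. After quantile normalization 4 were lower and 2 higher, against 12.5% and 11.0% of all genes, with a median of -0.08 against -0.01 for all genes. Relative to the median of all genes, the members thus stood at -0.51, -0.46 and -0.08 under the 3 scalings. As a plain share of all reads, the members took 0.622% to 0.703% in LSK and 0.661% to 0.710% in LK, ranges that overlapped.

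Called under all 19 alternatives were 4 of the 21 genes, namely U2af1, Sf3b4, Prpf31 and Lsm12. U2af1 was at 57.8 and 52.4 CPM in WT LSK and at 47.9 and 44.0 in Ripk3-/- LSK, against 85.7 and 117 in WT LK and 114 and 106 in Ripk3-/- LK. The 4 LSK libraries were all below the 4 LK libraries. Its log2 fold change was -1.05 (SE 0.17, limma adjusted p = 5.49e-05), and -0.68 and -0.76 with plain CPM and with quantile normalization. Sf3b4 was at 93.7 and 105 CPM in WT LSK, 55.7 and 44.3 in Ripk3-/- LSK, 128 and 139 in WT LK and 122 and 142 in Ripk3-/- LK, and its log2 fold change was -0.91 (SE 0.16, limma adjusted p = 0.000109). Within WT cells alone it was -0.42 (SE 0.22, limma adjusted p = 0.167) and within Ripk3-/- cells -1.39 (SE 0.22, limma adjusted p = 9.2e-05).

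Prpf31, a tri-snRNP protein that bridges U4 and U6 to U5, was at 113 to 156 CPM in LSK and at 184 to 283 in LK (log2 fold change -0.79, SE 0.15, limma adjusted p = 0.000248). Lsm12, which belongs to no snRNP ring, had 16.5 to 25.4 CPM in LSK against 42.2 to 58.2 in LK, and its log2 fold change of -1.18 (SE 0.23, limma adjusted p = 0.000371) was the largest of the members called. In both genes the populations did not overlap.

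The genes of U2 and the 3′ splice site held the most of these calls. With the TMM scaling 10 of 12 were lower in LSK, with a group median of -0.61, and with plain CPM and quantile normalization 3 and 2 were lower, with group medians of -0.25 and -0.24, where 9.56% and 12.5% of all genes were lower. The log2 fold change was below 0 for 12, 11 and 11 of the 12 genes under the 3 scalings. With the TMM scaling 7387 of all 15757 genes were below 0. The median of all genes was 0.07, 0.39 and -0.01 under the 3 scalings. Sf3b3 was at 252 to 305 CPM in LSK and at 388 to 546 in LK, and its log2 fold change of -0.77 (SE 0.12, limma adjusted p = 3.33e-05) shrank to -0.28 after quantile normalization (adjusted p = 0.0899). Snrpa1, the U2 A′ protein, was at 111 to 165 CPM against 188 to 279 (-0.66, SE 0.14, limma adjusted p = 0.000885), and it was not called with plain CPM or quantile normalization. For the Sm ring the group median changed sign, from -0.25 with TMM to 0.12 with plain CPM and 0.19 with quantile normalization.

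Other members with large differences were lower in LSK under the TMM scaling and lost the call under another. Prpf6, a tri-snRNP scaffold protein, was at 58.3 to 93.4 CPM in LSK and 123 to 149 in LK. Lsm6 was at 144 to 171 against 234 to 310, and Snrpg at 117 to 237 against 259 to 281. In these 3 genes the populations did not overlap. The log2 fold change of Snrpg was -0.39 (SE 0.19, limma adjusted p = 0.138) within WT cells and -1.10 (SE 0.19, limma adjusted p = 0.00021) within Ripk3-/- cells. Prpf19, a core member of the complex that activates the spliceosome, was at 61.2 to 83.2 in LSK and at 60.2 to 179 in LK, where Ripk3-/- LK replicate 1, at 60.2, lay below all LSK libraries. Snrpf and Lsm3 went in the other direction: after quantile normalization they were higher in LSK (0.61 and 0.59, limma adjusted p = 0.0486 and 0.00214), and with plain CPM they were again higher (0.85 and 0.49, limma adjusted p = 0.00528 and 0.00499), as was Lsm1 (0.46, limma adjusted p = 0.0385), while with the TMM scaling none of the 3 was called. With the TMM scaling the log2 fold change of Snrpf was -0.13 (SE 0.31) within WT cells and 1.11 (SE 0.31, limma adjusted p = 0.0135) within Ripk3-/- cells. Within Ripk3-/- cells it was 1.07 to 1.42 over the alternatives, and the call was lost without each of the Ripk3-/- libraries in turn.

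**Figure D5:**
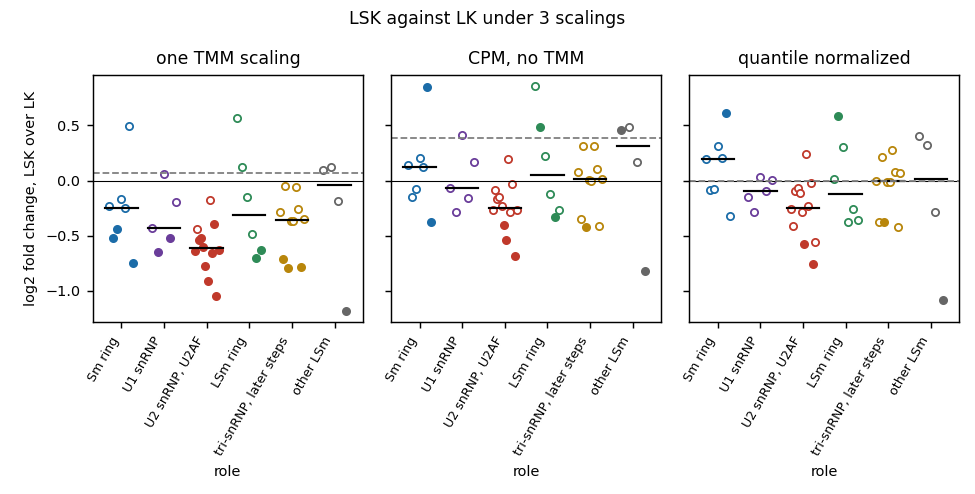
Log2 fold change of each member between LSK and LK under 3 scalings of the same reads. Points are members by role, filled where the adjusted p is under 0.05, solid lines are role medians and the dashed line is the median of all genes. With the TMM scaling 21 points are filled, all below 0, and with plain CPM 10 and with quantile normalization 6 are filled, in both directions.

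The WT and the Ripk3-/- libraries gave separate estimates of the difference between populations, with a spread estimated jointly. In WT cells, 13 members were lower in LSK and none higher, against 23.9% of all genes called (14.8% lower and 9.16% higher). In Ripk3-/- cells 14 were lower and 2, Snrpf and Lsm2, were higher, against 20.2% of all genes (12.2% lower and 7.95% higher), and edgeR called 10 (12.8% of all genes). Snrpf was called under 15 of 19 settings and lost the call without each of the Ripk3-/- libraries in turn. Lsm2 was called under 12 of 19 settings, and quantile normalization and edgeR were among those that lost it. The lower lists shared 7 genes, Lsm6, Lsm12, Prpf6, Prpf31, Sf3b2, Sf3b3 and U2af1, which is 53.8% of the WT list and 50.0% of the Ripk3-/- list. Within WT cells these were called under 11 (Sf3b2) to 17 (Lsm12) of 18 settings. Within Ripk3-/- cells they were called under 7 (Lsm12) to 19 (U2af1) of 19 settings, with Prpf31 at 9 and Prpf6 at 10. Over all genes the lower lists shared 1312, which is 55.8% of the WT list and 70.5% of the Ripk3-/- list. These counts were also tied to the scaling, with 1 and 6 calls in WT and Ripk3-/- after quantile normalization (12.2% and 15.8% of all genes) and 3 and 6 with plain CPM (21.6% and 18.8% of all genes). In WT the count fell to 4 without WT LSK replicate 2 or WT LK replicate 1 and was 8 and 6 without WT LSK replicate 1 or WT LK replicate 2, and in Ripk3-/- it fell to 4 without Ripk3-/- LK replicate 2 and to 8 without Ripk3-/- LSK replicate 2.

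Under the TMM scaling, 34 of the 77 other splicing genes were lower and 1 was higher in LSK, and of the 20 assembly genes 9 were lower and none higher (limma), against 20.2% and 13.7% of all genes. With plain CPM 11 of the 77 were lower and 8 higher and 5 of the 20 lower and 1 higher, against 9.56% and 24.3% of all genes. After quantile normalization 12 of the 77 were lower and 4 higher, and again 5 and 1 of the 20, against 12.5% and 11.0% of all genes. Several marker lists also differed between the populations. The summed signal of 6 myeloid progenitor markers was 5727 to 8840 in LSK and 51079 to 74072 in LK, and that of 8 immediate-early genes was 20298 to 24573 in LSK and 7734 to 9520 in LK, each on the scale of its own population. Their part in the differences of the snRNP genes was not tested.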

How the data were processed

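RNA was measured in 8 libraries made with a stranded mRNA kit (TruSeq). The submitters' processing notes name TopHat and mm9, and the counting tool, annotation and use of strand are not given in the sources used here. The values deposited by the authors are headed FPKM but are signal: reads per gene over a TMM library factor set within each population, with no division by length. In every library 100% of values above 0 were whole reads within 0.01, and the reads were recovered from these steps.

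Tests used limma 3.58.1 (lmFit, eBayes with trend) in R 4.3.3 on log2(signal + 1), with 4 group means over 8 libraries, a minimum mean of 1 over the libraries compared, two-sided p-values and Benjamini-Hochberg adjustment over all genes tested. Fold changes on this scale understate changes of low genes. For LSK against LK, recovered reads were scaled with one TMM normalization over all libraries (edgeR 4.0.16), as log2(CPM + 1). With 2 libraries per group an exact permutation test cannot go below p = 0.333 and was not used. Replicates were not duplicates (chi-square per degree of freedom 20.8 to 28.9 over genes).

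Alternatives were quantile normalization, another pseudocount (0.1), another minimum mean (none, or 5), no trend, a fit of one population alone, a replicate block, leaving out each library, edgeR's quasi-likelihood test and DESeq2 1.42.0 on recovered reads, and, chosen after seeing the data, CPM without TMM factors and crossed pairs. Exon lengths came from GENCODE M21 on GRCm38, where all 45 members matched, and near-identical copies from BLAST 2.17.0 (at least 90% identity over 200 bases, found for 22 members). Promoters came from RefSeq on GRCm38. The scripts were tested on simulated data. Members, roles and lists were chosen with earlier results of these data known. Library values are given for members called in a genotype comparison, for the 5 largest changes in each direction, and, singly or as ranges, for the 10 largest called differences between LSK and LK.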

Additional observations from a re-analysis of the deposited data

Results flagged for a closer look

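Snrpa1, Snrpb2 and Prpf4 had genotype differences of opposite direction in LSK and LK, with no overlap between WT and Ripk3-/- libraries in either population. Snrpa1 was at 126 and 163 signal in WT LSK and at 170 and 188 in Ripk3-/- LSK, and at 245 and 201 in WT LK against 166 and 180 in Ripk3-/- LK. The difference of its log2 fold changes was 0.68 (limma interaction, adjusted p = 0.423). Snrpb2, which codes for the U2 protein that pairs with that of Snrpa1, was at 101 and 98.4 against 112 and 114 in LSK and at 142 and 115 against 86.8 and 97.2 in LK, a difference of 0.65 (adjusted p = 0.473). Prpf4 was at 94.2 and 131 against 91.7 and 89.97 in LSK and at 82.1 and 68.3 against 86.8 and 87.9 in LK, a difference of -0.51 (adjusted p = 0.616). The pattern of directions was not tested beyond these interaction terms, none of which passed. Such a pattern was seen in 3 of 44 members (6.82%) and in 7.19% of 13746 genes tested in both populations.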

How the results depend on the processing

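The 3 member calls in LSK depended on the setting: 1 member was called with a pseudocount of 0.1, without a filter and with edgeR, 0 without the trend and when LSK was fitted alone, and DESeq2 gave 5. Leaving out a library gave 0 to 2 calls, 0 without WT LSK replicate 1, WT LSK replicate 2 or Ripk3-/- LSK replicate 2 and 1 without Ripk3-/- LSK replicate 1 or Ripk3-/- LK replicate 2. The member median ranged from -0.093 to -0.014 in LSK and from -0.16 to -0.0056 in LK over these, and that of the interaction from -0.076 to 0.15, and was -0.12 with quantile normalization. For LSK against LK, calls over both genotypes, in WT and in Ripk3-/- were 6, 1 and 6 with quantile normalization, 12, 1 and 5 without the trend and 10, 3 and 6 with CPM without TMM factors, and 10 in Ripk3-/- with edgeR. The medians became -0.082, -0.0069 and -0.16 with quantile normalization and -0.070, -0.0024 and -0.16 with CPM without TMM factors. Without single libraries these calls ranged from 15 to 20, 4 to 14 and 4 to 17, and the medians from -0.49 to -0.35, -0.49 to -0.40 and -0.51 to -0.32. For all of these the cause was not tested. Of all genes, 12.2% in WT and 15.8% in Ripk3-/- were called with quantile normalization, and 21.6% and 18.8% with CPM without TMM factors. Over both genotypes, 12.5% were lower and 11.0% higher with quantile normalization, and 9.56% and 24.3% with CPM without TMM factors. With edgeR 12.8% were called in Ripk3-/-. For the fits without the trend or without single libraries such shares are not given here, so those member counts cannot be set against them. In LK, Sf3a2 (-0.073 to 0.97) and Prpf8 (-0.019 to 0.53) changed sign, both without WT LK replicate 1. Of 564 alternative values for the 32 gene results, 513 kept direction and call, 45 lost the call, 4 gained it and 2 changed sign. Replicate numbers did not pair the libraries (correlations of deviations -0.14 to 0.051). With the replicate block, 2 members were called in LSK, 0 in LK and 19, 10 and 16 in the comparisons of LSK with LK, and with pairs crossed in Ripk3-/- 22 over both genotypes and 19 in Ripk3-/-. With 2 libraries a group, depth limits Lsm2 most (19 reads in the lowest LSK library).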
